A study of Mus musculus with 8 samples.

Results

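The Bmp system of embryonic mouse lung mesenchyme was followed through 10 genes, the ligands Bmp2, Bmp4, Bmp5 and Bmp7, the secreted modulator Bmper, the secreted antagonists Grem1, Nog and Fst, the decoy receptor Bambi and the signalling receptor Bmpr1a. The members were all probe sets whose only gene symbol in the platform annotation is one of these names, which gave 20 of the 45037 probe sets on the arrays and 10 of the 18193 genes with a probe set of 1 symbol. Bmpr1a has 6 of them, Bmp5 and Bmp7 have 3 each, Fst has 2, and the other 6 genes have 1 each. Each gene is led below by the probe set that was brightest on average.

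The 8 arrays hold 4 groups of 2, all of lung mesenchyme from CD1 embryos between e11.5 and e12.5. Tip mesenchyme surrounded the budding airway ends and was profiled straight after dissection. Stalk pieces spent 12 h on tissue culture plastic in growth medium with 400 ng/ml Wnt1 (Wnt1 culture) or in the same medium without it (control culture). Stalk mesenchyme, from around the airway behind the tips, was also profiled straight after dissection, and every sample was dissected tissue that can hold several cell types. CD1 is an outbred stock, the labels name both stages for every array, and they are silent on whether replicates came from different litters or cultures. The p-values therefore measure only how far these arrays spread, which may be technical. The design asks how tip differs from stalk and what Wnt1 does to stalk, and it also allows each culture to be set against uncultured stalk.

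Bmp ligands are secreted growth factors that bind a complex of type I and type II serine/threonine kinase receptors on the receiving cell. Bmpr1a is a type I receptor and Bmpr2 a type II receptor. The activated complex phosphorylates Smad1, Smad5 and Smad9, which enter the nucleus with Smad4 and switch on targets such as the Id genes. Grem1 and Nog bind Bmp ligands outside the cell, Fst binds mainly activins and also some Bmps, and Bmper can restrain or aid the signal. In the developing mouse lung Bmp4 is made at the branch tips by the epithelium and also by mesenchyme.

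Markers of lung mesenchyme were strong in uncultured tissue. Of 10 such genes on the array, 10 exceeded a signal of 298 on at least 1 array in tip, 10 in each culture and 9 in stalk. That value is the highest median of any array and is used below as a mark for dim signal. It is a high bar for uncultured arrays, whose medians were 76.2 to 99.4, against 149 to 298 in the cultures. For Actb, the signal at the 3' end over that at the 5' end, which falls when RNA is whole and labelled along its length, was 6.81 to 24.4 in the cultures and 2.02 to 4.52 without culture. The arrays had been scaled to a common trimmed mean, which did not even out these medians. The median log2 fold change over all 37414 probe sets tested was 0.72 for control culture minus stalk and 0.56 for Wnt1 culture minus stalk, but 0.03 for tip minus stalk and -0.11 for Wnt1 minus control culture. A change of a member against stalk is given below both as measured and relative to these medians. The rank of a probe set within its own array, as a percentile, does not depend on scaling at all.

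**Figure D1:**
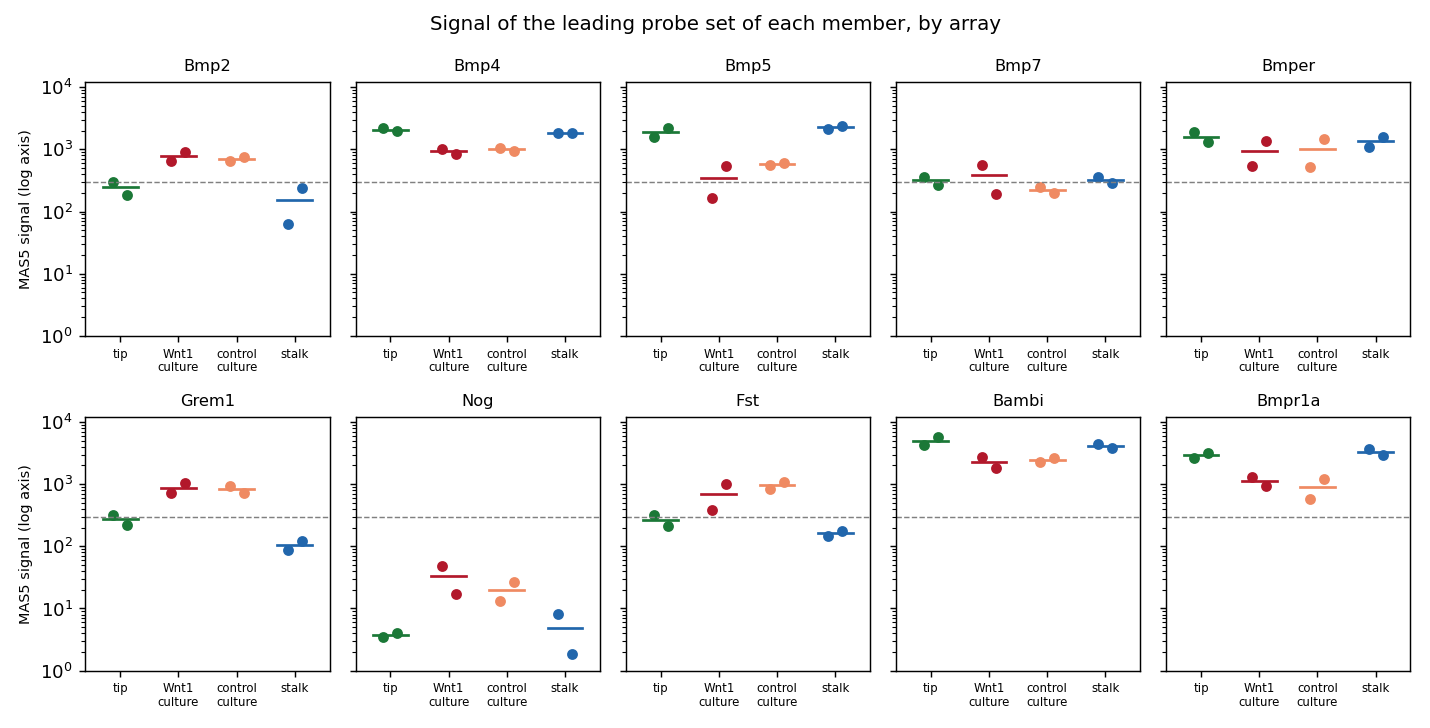
MAS5 signal (log axis) of the leading probe set of each of the 10 genes on each array, replicate 1 left and replicate 2 right in each group, with a bar at the group mean and a dashed line at a signal of 298. Bmp2, Grem1 and Fst lie higher in both cultures than in stalk, Bmp4, Bmp5, Bambi and Bmpr1a lie lower, and Nog is at most 48.8 on every array.

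Bmp2, a ligand that shares a subfamily with Bmp4, had signals of 302 and 187 in tip, 657 and 919 in Wnt1 culture, 651 and 763 in control culture, and 64.2 and 241 in stalk. All 4 culture arrays were above all 4 uncultured arrays, while tip and stalk overlapped. Within its arrays Bmp2 stood at the 78.7th to 86.9th percentile in culture, and at 41.05 and 67.7 in stalk.

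Bmp4 had 2178 and 1950.4 in tip, 1033 and 857 in Wnt1 culture, 1042 and 959 in control culture, and 1824 and 1841 in stalk. Tip lay just above stalk and stalk above both cultures, which overlapped each other. The replicates of Bmp4 were close in every group, with SDs of 161 in tip, 124 in Wnt1 culture, 58.3 in control culture and 12.0 in stalk (n = 2 each). Its rank moved little, from the 86.1st to the 88.6th percentile in culture and from the 90.7th to the 92.2nd without it.

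Bmp5, a ligand of the subfamily that also holds Bmp7, had 1597 and 2187 in tip, 166 and 534 in Wnt1 culture, 564 and 611 in control culture, and 2125 and 2395 in stalk. Every culture array was below every uncultured array. Wnt1 replicate 1 was the lowest of the 8, at the 33.6th percentile of its array, where the other culture arrays had Bmp5 at the 74.4th to 80.1st percentile and uncultured arrays at 89.96 to 92.6. Probe set 1421283_at gave 298 and 327 in tip, 429.8 and 148 in Wnt1 culture, 75.4 and 279 in control culture, and 189.5 and 282 in stalk. Probe set 1421282_at gave 122 and 211 in tip, 38.9 and 106 in Wnt1 culture, 225 and 166 in control culture, and 173 and 115 in stalk. Neither of these dim probe sets passed in any comparison, and their directions against stalk were mixed. In control culture 1421282_at was at 0.35 and 1421283_at at -0.49. In Wnt1 culture 1421282_at was lower than in stalk without overlap, at -0.74 ± 0.59, and 1421283_at was at 0.13. With median centring both dim probe sets were below 0 in both cultures. Taken as the mean of its probe sets, Bmp5 was at -0.67 in control culture and -1.11 in Wnt1 culture against stalk.

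Bmp7 was near the mark for dim signal. Its leading probe set had 362 and 271 in tip, 571 and 193 in Wnt1 culture, 251 and 202 in control culture, and 365 and 290.1 in stalk. The replicates in Wnt1 culture spanned all the other arrays. Probe set 1418910_at gave 130.1 and 127 in tip, 426 and 153 in Wnt1 culture, 151 and 165 in control culture, and 130.2 and 128 in stalk, with Wnt1 replicate 1 apart here too. The third, 1432410_a_at, ranged from 2.68 to 43.0 and did not pass the filter.

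Bmper, a secreted protein that binds Bmps, had 1875 and 1292 in tip, 533 and 1362 in Wnt1 culture, 526 and 1491 in control culture, and 1098 and 1599 in stalk. All 4 groups overlapped with their neighbours in the order of levels. In both cultures replicate 1 was low and replicate 2 was within the range of the uncultured arrays.

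Grem1 had 319 and 223 in tip, 712 and 1026 in Wnt1 culture, 942 and 709 in control culture, and 85.7 and 123 in stalk. The cultures lay above tip, and tip above stalk, without overlap. In rank, Grem1 stood at the 80.8th to 87.8th percentile in culture, the 70.7th and 67.0th in tip, and the 47.8th and 58.2nd in stalk.

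Fst had 323 and 211 in tip, 380.4 and 988 in Wnt1 culture, 825 and 1086 in control culture, and 148 and 174 in stalk. The cultures overlapped each other and lay above both uncultured groups. Its second probe set gave 152 and 145 in tip, 548 and 844 in Wnt1 culture, 580 and 488 in control culture, and 134 and 108 in stalk, and both probe sets placed tip above stalk without overlap. By rank the leading probe set was less clear, since Wnt1 replicate 1 stood at the 59.6th percentile, below both tip arrays at the 70.8th and 66.1st and between the stalk arrays at the 58.9th and 63.3rd. By rank Wnt1 culture and stalk therefore overlapped.

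Nog was barely above the bottom of the arrays, with 3.44 and 4.09 in tip, 48.8 and 17.1 in Wnt1 culture, 13.0 and 26.6 in control culture, and 8.02 and 1.86 in stalk. It stood at or below the 13.3rd percentile of every array and did not pass the filter on dim probe sets. No comparison was made for Nog.

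Bambi, a membrane protein that resembles a type I receptor but lacks the kinase, was strong everywhere, with 4342 and 5664 in tip, 2728 and 1797 in Wnt1 culture, 2257 and 2597 in control culture, and 4465 and 3806 in stalk. The uncultured groups overlapped each other and lay above the cultures. In rank it kept between the 92.2nd and the 96.8th percentile on all 8 arrays.

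Bmpr1a had 2671 and 3204 in tip, 1319 and 921 in Wnt1 culture, 586 and 1195 in control culture, and 3681 and 2925 in stalk. The cultures overlapped each other and lay below tip and stalk. Its rank was the 75.6th to 91.2nd percentile in culture and the 93.6th to 95.3rd without it. Control culture replicate 1 was the lowest array of all.

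**Figure D2:**
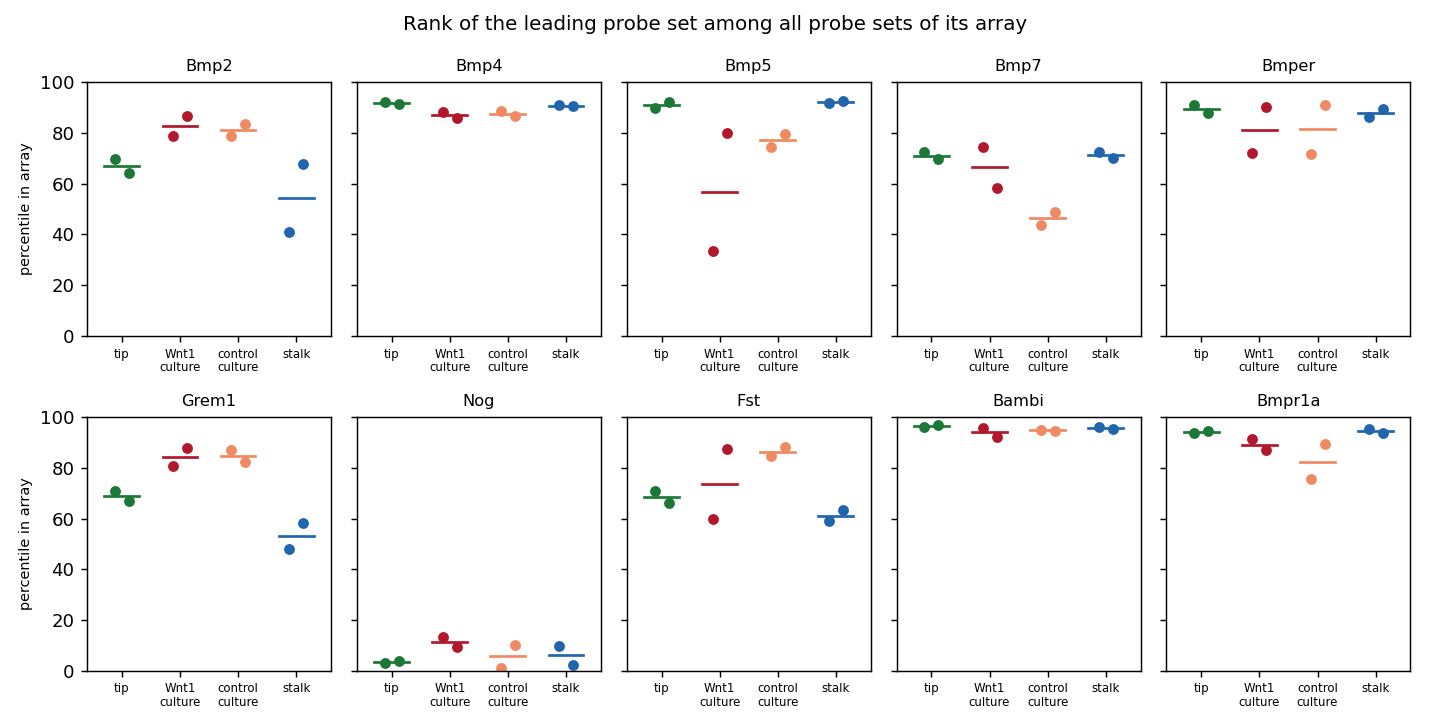
Percentile of each gene's leading probe set among all 45037 probe sets of the same array, replicate 1 left and replicate 2 right, with a bar at the group mean. Grem1 and Bmp2 rank above all uncultured arrays in both cultures, Bmp5 ranks below them, and Bmp4 and Bambi shift by only a few percentiles.

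Promoter sequence from RefSeq (GRCm38.p6) was given for 5 of the 10 genes, Bmp4, Bmp5, Bmper, Bmpr1a and Grem1. The 250 bases before the start are shown for Grem1, which was higher in culture, and for Bmp5 and Bmpr1a, which were lower. Capitals mark any match, on either strand, to TGANTCA (AP-1), CTTTGA (TCF/LEF), CATTCC (TEAD) or GGCGCC, a GC-rich element bound by Bmp-activated Smads. The Grem1 window is chr2:113758649-113758898 (minus strand), the Bmpr1a window chr14:34502547-34502796 (minus strand) and the Bmp5 window chr9:75775115-75775364 (plus strand).
Grem1: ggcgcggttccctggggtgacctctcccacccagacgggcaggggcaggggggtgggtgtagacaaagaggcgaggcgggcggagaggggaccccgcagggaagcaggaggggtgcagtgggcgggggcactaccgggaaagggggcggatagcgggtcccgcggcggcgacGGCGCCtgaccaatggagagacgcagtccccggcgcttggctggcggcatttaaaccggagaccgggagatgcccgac
Bmpr1a: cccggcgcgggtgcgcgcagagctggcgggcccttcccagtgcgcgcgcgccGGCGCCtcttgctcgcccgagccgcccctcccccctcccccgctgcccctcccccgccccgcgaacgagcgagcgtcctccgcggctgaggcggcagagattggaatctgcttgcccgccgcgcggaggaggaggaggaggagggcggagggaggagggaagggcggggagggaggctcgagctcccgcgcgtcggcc
Bmp5: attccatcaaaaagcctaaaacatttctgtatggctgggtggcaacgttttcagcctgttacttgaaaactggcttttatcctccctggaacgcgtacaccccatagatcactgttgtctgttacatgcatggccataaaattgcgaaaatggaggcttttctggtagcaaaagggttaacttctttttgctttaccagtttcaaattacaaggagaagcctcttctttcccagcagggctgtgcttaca
The Grem1 and Bmpr1a windows each held 1 GGCGCC and none of the other letters searched, although these genes differed from stalk in opposite directions. The Bmp5 window held none of the 4 motifs, and neither did that of Bmp4, while that of Bmper had 1 match to CTTTGA, read on the other strand. With at most 1 match a window, none overlapped. GGCGCC occurs in 9.59% of the 32851 windows of this length in the table, CTTTGA in 13.8%, CATTCC in 12.6% and TGANTCA in 6.75%. The GC content was 72.0% for Grem1, 78.8% for Bmpr1a and 42.8% for Bmp5, against a median of 52.4% over all windows. A match is a run of letters and not a shown binding site.

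Tip and stalk mesenchyme differed most in the antagonist Grem1, which averaged 271 ± 67.5 in tip and 104 ± 26.5 in stalk (SD, n = 2), a log2 fold change of 1.08 ± 0.44 (SE). Fold changes are differences of log2(signal + 44.4), which understates the change of dim genes. Bmp2 had a difference of 0.68 ± 0.51 and Fst of 0.58 ± 0.49, and the other 6 genes tested lay between -0.27 and 0.26. No member passed the threshold (limma with Benjamini-Hochberg adjustment, adjusted p = 0.99998 for each), and 0 of all 37414 probe sets did (0%; 0.412% at an unadjusted p under 0.05). Of the 9 leading probe sets, Grem1 alone had an unadjusted p under 0.05, at 0.028. With signals below 298 raised to that value the Grem1 difference was 0.05, the Bmp2 difference 0.01 and the Fst difference 0.06. All stalk signals of these 3 genes were below that value.

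Replicates of tip and stalk did not overlap for 7 of the 18 member probe sets tested (38.9%), against 33.1% of all probe sets. In tip 5 were higher (27.8%), against 18.5% of all, and 2 were lower (11.1%), against 14.6% of all. These shares were not tested against the background, and several of the probe sets share a gene. Bmp4, at 2064 ± 161 in tip and 1833 ± 12.0 in stalk (SD, n = 2), was one of the 5, with a difference of only 0.17 ± 0.33. The median over the 9 leading probe sets was 0.22, against 0.03 over all probe sets tested.

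Among cell types other than the mesenchyme itself, mesothelial markers, from the sheet that covers the lung, summed to 4481 to 7575 in tip and 3304 to 3600.3 in stalk. All 7 of its genes were on the array and 6 were above 0 in tip minus stalk, none past the threshold. Grem1 was highest of the uncultured arrays on tip replicate 1, and so were the mesothelial markers Upk3b (3915 and 2550.4 in tip, 1892 and 1741 in stalk) and Bnc1 (1508 and 684 in tip, 455 and 493 in stalk). The same held for Bmp2, Fst and the epithelial markers Krt8 and Krt18, so it was not particular to mesothelial markers. Smooth muscle markers summed to 1375 to 4276 in tip and 4999.8 to 6284 in stalk, with 7 of 7 below 0 and none past the threshold. Epithelial markers summed to 1760.2 to 2824 in tip and 1605 to 1949.9 in stalk, and Nkx2-1 and Sftpc, which define lung epithelium, were at 7.65 to 106 on these arrays. Krt8 and Krt18 of the same list were brighter there, at 486 to 1118.5 and 496 to 1046. Endothelial markers summed to 4408 to 6439 in tip and 7699 to 8878 in stalk, and macrophage markers to 1313 to 4615 in tip and 3742 to 4321 in stalk. What part these cells had in the difference was not tested. In whole tissue, fewer cells of a type and less RNA per cell cannot be told apart.

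**Figure D3:**
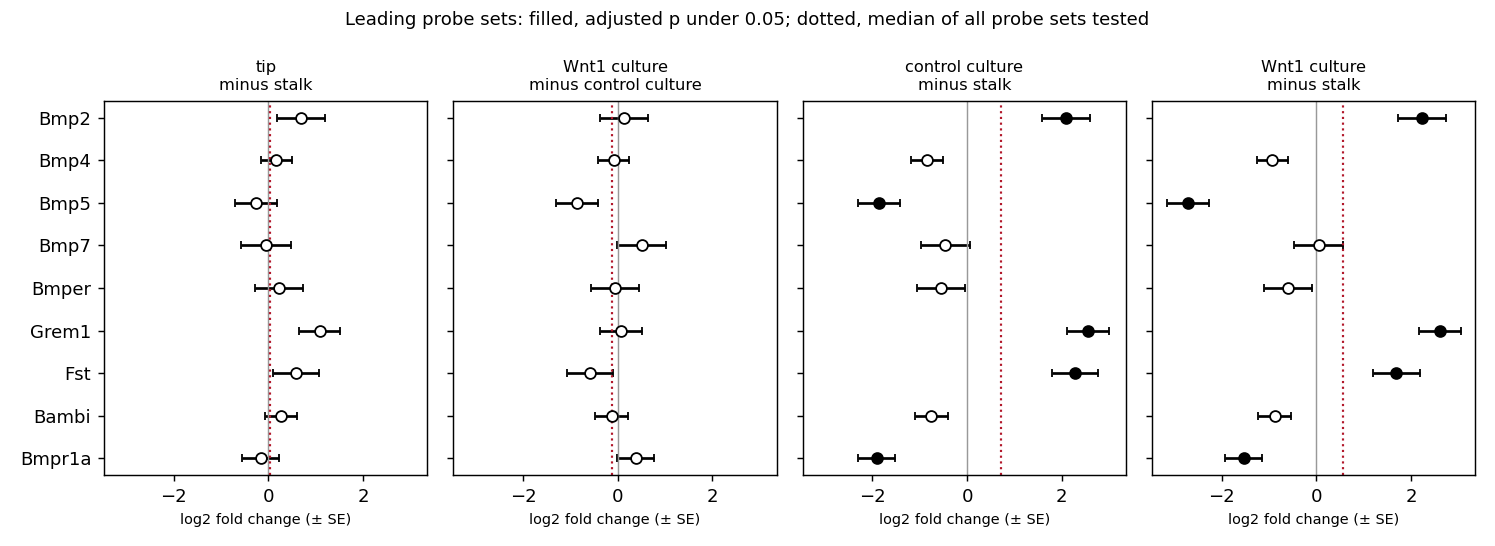
Log2 fold change (± SE) of the 9 leading probe sets tested, in 4 comparisons of 2 arrays against 2; filled points have an adjusted p under 0.05 and the dotted line is the median of all 37414 probe sets. No point is filled for tip minus stalk or Wnt1 minus control culture, and the same 5 genes are filled against stalk in both cultures.

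After culture, 3 of the 9 genes tested were higher than in stalk and 2 were lower past the threshold, and these were the same genes in both media. By probe set that was 6 of 18 in each culture (33.3%), against 23.2% of all in control culture and 11.4% in Wnt1 culture. The 2 comparisons share the stalk arrays, so the second does not repeat the first independently. In control culture Grem1 rose by 2.55 ± 0.44 on the log2 scale (826 ± 165 in control culture and 104 ± 26.5 in stalk, SD, n = 2; limma, adjusted p = 0.0050), Fst by 2.27 ± 0.49 (955 ± 185 in control culture and 161 ± 18.6 in stalk; adjusted p = 0.011) and Bmp2 by 2.09 ± 0.51 (707 ± 79.2 in control culture and 153 ± 125 in stalk; adjusted p = 0.017). Bmpr1a fell by 1.91 (SE 0.39), with 890.4 ± 431 in control culture and 3303 ± 535 in stalk (adjusted p = 0.0092). Bmp5 fell by 1.87 (SE 0.44), with 587 ± 33.5 in control culture and 2259.9 ± 191 in stalk (adjusted p = 0.016).

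In Wnt1 culture the changes against stalk were 2.61 ± 0.44 for Grem1, with 869 ± 222 in Wnt1 culture (SD, n = 2; limma, adjusted p = 0.0058), and 2.22 ± 0.51 for Bmp2, with 788 ± 186 (adjusted p = 0.021). Fst had 684 ± 430 and a change of 1.69 ± 0.49, which passed narrowly (adjusted p = 0.042). That call was lost in 13 of 23 alternatives, over which the change ran from 0.88 to 2.33. Bmp5 was at 350.0 ± 259.9 and fell by 2.72 (SE 0.44, adjusted p = 0.0048), and Bmpr1a was at 1119.9 ± 282 and fell by 1.54 (SE 0.39, adjusted p = 0.028). For both directions together the replicates of Wnt1 culture and stalk did not overlap in 12 of 18 member probe sets (66.7%), against 64.8% of all, and those of control culture and stalk in 14 of 18 (77.8%), against 71.1% of all.

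Bmp4 and Bambi were also lower in both cultures without overlap, but missed the threshold. Bmp4 was at -0.85 ± 0.33 in control culture (limma, adjusted p = 0.072) and -0.93 ± 0.33 in Wnt1 culture (adjusted p = 0.073). Bambi was at -0.76 ± 0.35 in control culture (limma, adjusted p = 0.11) and -0.88 ± 0.35 in Wnt1 culture (adjusted p = 0.094). Bmp4 passed in 5 of 23 alternatives in each culture, among them median centring at -1.85 in control culture (limma, adjusted p = 0.023) and -1.73 in Wnt1 culture (adjusted p = 0.041). Bambi passed with median centring in control culture, at -1.76 (limma, adjusted p = 0.036), and at the looser threshold of 0.10 in Wnt1 culture. With quantile normalization the falls were smaller and without a call. Bmp4 was then at -0.45 in control culture and -0.50 in Wnt1 culture, and Bambi at -0.31 and -0.46. Bmper, at -0.55 ± 0.51 and -0.60 ± 0.51 in the same order, and Bmp7, at -0.46 ± 0.52 and 0.04 ± 0.52, did not pass either. With median centring Bmp7 passed in control culture at -1.47 (limma, adjusted p = 0.041).

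Counted by probe set, 4 of 18 rose in control culture (22.2%), against 16.8% of all probe sets, and 2 fell (11.1%), against 6.42% of all. In Wnt1 culture 4 rose (22.2%), against 7.06% of all, and 2 fell (11.1%), against 4.32% of all. These shares were not tested against the background, and both Fst probe sets are among the 4 that rose in each culture. The calls lie beside a broad change of the whole array with culture. At an unadjusted p under 0.05, 10 of 18 member probe sets differed in control culture (55.6%), against 41.8% of all, and 8 of 18 in Wnt1 culture (44.4%), against 34.6% of all. Without overlap, 7 were higher and 7 lower in control culture (38.9% each), against 51.4% and 19.7% of all, and 6 were higher and 6 lower in Wnt1 culture (33.3% each), against 45% and 19.9% of all. The split of all calls moved with scaling. In control culture 72.4% of calls were upward, against 43.0% with quantile normalization, 15.9% with median centring and 37.4% with a floor at 298. In Wnt1 culture 62.0% were upward, against 45.8%, 15.9% and 28.1%. Relative to the median of all probe sets, Grem1 was at 1.83 in control culture and 2.05 in Wnt1 culture, Fst at 1.55 and 1.13, and Bmp2 at 1.37 and 1.66. On that scale Bmpr1a was at -2.63 and -2.10, Bmp5 at -2.59 and -3.28, Bmp4 at -1.57 and -1.49, and Bambi at -1.48 and -1.44. Bmper was at -1.27 and -1.17, and Bmp7 at -1.18 and -0.52. The direction of the first 7 of these genes was the same with quantile normalization and median centring. The floor could not reverse it, as neither culture overlapped stalk for these 7.

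The calls were less stable than the directions. With quantile normalization only Grem1 passed, at 2.15 in control culture (limma, adjusted p = 0.029) and 2.14 in Wnt1 culture (adjusted p = 0.042), and with signals under 298 raised to it no member did, where Grem1 was at 1.45 and 1.52. With median centring 0 members were higher and 5 lower in control culture, so that the calls of Grem1 (1.54), Fst (1.26) and Bmp2 (1.08) were lost there. In Wnt1 culture 1 was higher, Grem1 at 1.80, and 3 were lower with that centring. Without stalk replicate 1 or stalk replicate 2, none passed in control culture and 1 or 2 in Wnt1 culture, as calls over all probe sets fell to 474 or 214 in control culture and 262 or 179 in Wnt1 culture. The members left were Bmp5 without stalk replicate 1, and Bmp2 and Grem1 without stalk replicate 2. Without either tip array 3 members passed in Wnt1 culture, and without Wnt1 replicate 1 also 3. Without control replicate 1, 2 members passed in control culture. The changes of Grem1 in control culture ran from 1.45 to 2.81 over the 23 alternatives, those of Fst from 1.26 to 2.46, those of Bmp2 from 1.08 to 2.79, those of Bmp5 from -2.87 to -0.67 and those of Bmpr1a from -2.92 to -0.41. In Wnt1 culture Grem1 ran from 1.52 to 2.87, Bmp2 from 1.38 to 2.92, Bmp5 from -3.53 to -1.11 and Bmpr1a from -2.34 to -0.19, and the call of Bmpr1a was lost in 9 of the 23.

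The probe sets of Bmpr1a did not move alike. In the annotation 5 of its 6 probe sets carry the same source accession. Probe set 1425494_s_at gave 1137 and 657 in tip, 921 and 523 in Wnt1 culture, 232 and 533 in control culture, and 819.6 and 938 in stalk. Probe set 1425493_at gave 731 and 429 in tip, 469.7 and 455 in Wnt1 culture, 132 and 371 in control culture, and 481 and 498 in stalk. Both were lower in control culture than in stalk without overlap, but at -1.21 ± 0.46 and -0.98 ± 0.48 neither passed, against -1.91 for the leading probe set. The dim 1451729_at went the other way, at 1.42 ± 0.60, with 119 and 248 in tip, 64.8 and 208 in Wnt1 culture, 689.6 and 319.7 in control culture, and 136 and 163 in stalk. Probe set 1425491_at gave 149.8 and 205 in tip, 482 and 341 in Wnt1 culture, 139 and 282 in control culture, and 249 and 286 in stalk. Probe set 1445413_at stayed between 42.9 and 249. In Wnt1 culture 1425493_at was at -0.08 ± 0.48 against stalk and 1425494_s_at at -0.32 ± 0.46. Relative to the median of all probe sets these were -0.64 and -0.88, and with median centring -0.88 and -1.12. They were smaller with quantile normalization, at -0.26 and -0.02, and with the signal floor, at -0.08 and -0.34. In Wnt1 culture 1425491_at was higher than in stalk without overlap, at 0.53 ± 0.51, but did not pass. Its change was 0.15 with quantile normalization, 0.44 with the signal floor and -0.27 with median centring. Taken as the mean of its probe sets, Bmpr1a was at -0.41 in control culture and -0.19 in Wnt1 culture and passed in neither.

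**Figure D4:**
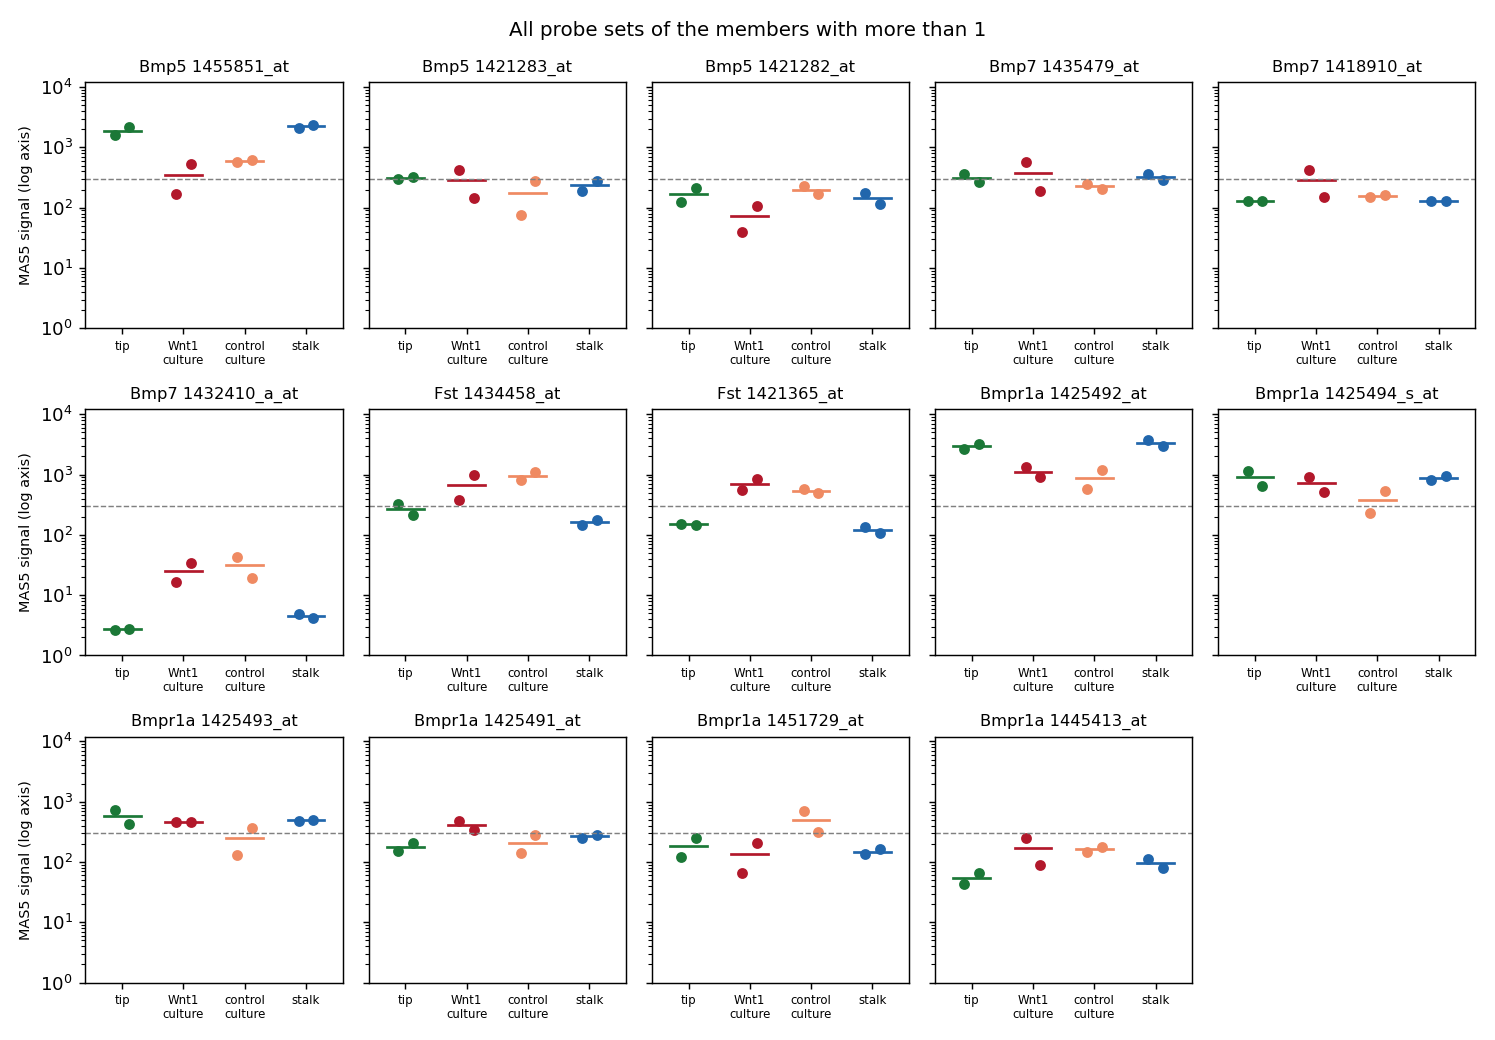
MAS5 signal (log axis) of every probe set of Bmp5, Bmp7, Fst and Bmpr1a on each array, replicate 1 left and replicate 2 right, with a bar at the group mean and a dashed line at 298. Both Fst probe sets lie higher in the cultures than in stalk, whereas of 6 Bmpr1a and 3 Bmp5 probe sets the brightest shows the largest drop.

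No effect of Wnt1 on these genes was detected in cultured stalk. Between the cultures no member had an adjusted p under 0.05, and 0 of all probe sets had one (0%; 7.68% at an unadjusted p under 0.05 by limma). Grem1 differed by 0.06 with a 95% interval of -0.88 to 1.004, Bmp2 by 0.13 (-0.96 to 1.23), Bmp4 by -0.08 (-0.79 to 0.62) and Bambi by -0.13 (-0.87 to 0.62). The intervals are wide, so equal levels were not shown. Bmp5 had the largest difference of the leading probe sets, at -0.86 ± 0.44 (350.0 ± 259.9 in Wnt1 culture and 587 ± 33.5 in control culture, SD, n = 2; limma, adjusted p = 0.68). It was -0.13 without Wnt1 replicate 1 and -1.58 without Wnt1 replicate 2. Fst was at -0.58 ± 0.49, Bmp7 at 0.50 ± 0.52, Bmpr1a at 0.38 ± 0.39 and Bmper at -0.05 ± 0.51.

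The Wnt1 and control replicates did not overlap in 5 of 18 member probe sets (27.8%), against 25.3% of all probe sets. They were 2 higher (11.1%) and 3 lower (16.7%) with Wnt1, against 8.94% and 16.4% of all, shares near the background. Of the Bmpr1a probe sets, 1451729_at was at -1.64 ± 0.60 with an unadjusted p of 0.016 and an adjusted p = 0.60 by limma, while 1425493_at was at 0.90 ± 0.48 and 1425491_at at 0.88 ± 0.51. These probe sets of a single gene pointed in opposite directions.

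Other receptors of the Bmp family were described from a list of 11 names, of which 10 were on the array. Over all probe sets 16.8% rose and 6.42% fell in control culture, and 7.06% rose and 4.32% fell in Wnt1 culture. Of the receptors, 3 of the 10 fell and 3 rose in control culture against stalk (median -0.57). In Wnt1 culture 3 fell and 1 rose (median -0.19), against medians of 0.72 and 0.56 over all probe sets. The 3 that fell were the same, the type I receptor Acvr1 and the type II receptors Acvr2b and Bmpr2, and all were bright in stalk. Bmpr2 had 3047 and 3211 in tip, 1228 and 1009 in Wnt1 culture, 725 and 2564 in control culture, and 4463 and 4723 in stalk. It was at -1.71 in control culture (limma, adjusted p = 0.023) and -2.00 in Wnt1 culture (adjusted p = 0.021). Acvr1 was at -1.41 (limma, adjusted p = 0.022) and -1.37 (adjusted p = 0.036) in the same order, and Acvr2b at -1.47 (adjusted p = 0.018) and -2.58 (adjusted p = 0.0022). The genes that rose in control culture, the Bmp co-receptors Rgmb, Rgma and Hjv (Rgmb also in Wnt1 culture), had stalk signals of at most 120. Hjv exceeded the filter on dim probe sets only on culture arrays, so it entered the tests through them. With signals under 298 raised to it Rgmb, Rgma and Hjv were at 0.97, 0.54 and 0.63 with no call. With that floor Acvr1 was at -1.48 and Bmpr2 at -1.75 in control culture, both without a call, while Acvr2b still passed at -1.55 (limma, adjusted p = 0.040). With quantile normalization Bmpr2 and Acvr1 passed in neither culture, and Acvr2b passed in Wnt1 culture but not in control culture (-1.44; limma, adjusted p = 0.086). Between tip and stalk 9 of the 10 receptors were below 0 (median -0.27), none past the threshold.

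Of the Smads that carry the signal, Smad5 fell in both cultures. It had 1991 and 2559 in tip, 324 and 343 in Wnt1 culture, 303 and 789 in control culture, and 3347 and 3004 in stalk, a change of -2.58 in control culture (limma, adjusted p = 0.0039) and -3.09 in Wnt1 culture (adjusted p = 0.0015). Smad5 also passed with quantile normalization, at -2.74 (limma, adjusted p = 0.036) and -3.17 (adjusted p = 0.037), and without either stalk array. Smad4, the shared partner, fell in Wnt1 culture by 1.33 (limma, adjusted p = 0.046) and was at -0.28 in control culture, and the Wnt1 minus control difference of -1.05 did not pass. The Smad4 call was lost with quantile normalization (-1.03; limma, adjusted p = 0.11) and with median centring (-2.13; adjusted p = 0.051). Smad9 rose in control culture by 2.75, where its stalk signals were 11.9 and 18.5, and Smad1 did not pass in any comparison. Smad9 exceeded the filter on dim probe sets only on culture arrays, so it entered the tests through them. The Smad9 call was lost with quantile normalization (1.82; limma, adjusted p = 0.10) and with median centring (1.74; adjusted p = 0.064). With signals under 298 raised to it, Smad9 still passed, but its change was only 0.25 (limma, adjusted p = 0.041).

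Few genes induced by Bmp signalling passed the threshold. Of 10 tested from a list of 11, control culture had 0 higher and 1 lower past the threshold (median 0.17), and Wnt1 culture had 1 higher and 0 lower (median 0.25), against medians of 0.72 and 0.56 over all probe sets. Of all probe sets, 16.8% were higher and 6.42% lower in control culture, and 7.06% higher and 4.32% lower in Wnt1 culture. As measured, 4 of the 10 were below 0 in each culture. With median centring 8 of the 10 were below 0 in control culture and 7 in Wnt1 culture. With quantile normalization 4 were below 0 in control culture (median 0.13) and 5 in Wnt1 culture (median 0.09). With the signal floor 3 were below 0 in each culture. The direction of the list therefore depended on the scaling. Id1, a classic target, had 1369 and 1087 in tip, 2222 and 2375 in Wnt1 culture, 1561 and 982 in control culture, and 967 and 904 in stalk. It rose in Wnt1 culture by 1.26 (limma, adjusted p = 0.038; 1.56 and adjusted p = 0.064 with quantile normalization; 0.45 and adjusted p = 0.56 with median centring), and its difference between Wnt1 and control culture was 0.87 with no call. Hey1, which is also a Notch target, fell in control culture by 1.57 (limma, adjusted p = 0.038), with 346 and 339 in Wnt1 culture, 84.4 and 80.4 in control culture and 279.7 and 393 in stalk. The Wnt1 minus control difference of Hey1 was 1.61 (limma, adjusted p = 0.59).

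**Figure D5:**
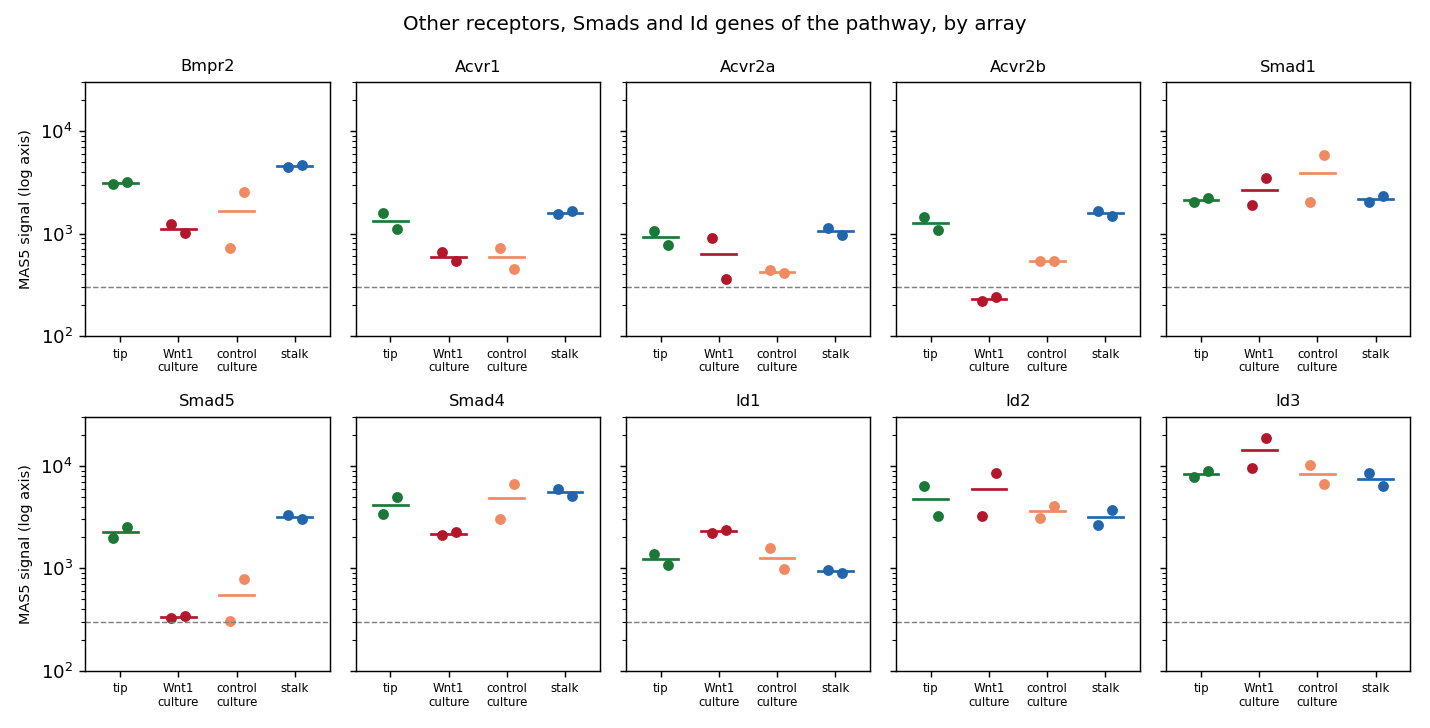
MAS5 signal (log axis) of 10 other genes of the pathway on each array, replicate 1 left and replicate 2 right, with a bar at the group mean and a dashed line at 298. Bmpr2, Acvr1, Acvr2b and Smad5 lie lower in both cultures than in stalk without overlap, whereas Id2 and Id3 overlap between control culture and stalk.

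Further antagonists and ligands were mostly dim. Of 12 antagonists tested from a list of 15, 2 rose in control culture, Sostdc1 (1.93; limma, adjusted p = 0.040) and Cer1 (2.29; adjusted p = 0.023), and none passed in Wnt1 culture (medians 0.83 and 0.45). Both were at 31.5 or less in stalk. Of 7 ligands tested from a list of 12, Bmp8a and Gdf11 rose in control culture and Gdf11 in Wnt1 culture (medians 1.42 and 1.49), and every one of the 9 on the array was under 298 in tip and stalk. Sostdc1, Cer1, Bmp8a and Gdf11 exceeded the filter on dim probe sets only on culture arrays, so they entered the tests through them. With signals under 298 raised to it these 4 genes were at 0.07, 0.05, 0.27 and 0 in control culture. Fstl1, a secreted relative of Fst, had 8812 and 10422 in tip, 13011 and 20129 in Wnt1 culture, 9842 and 33909 in control culture, and 11682 and 10551 in stalk, with no call.

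Markers of several cell types differed between culture and stalk beside these genes. Over all probe sets 16.8% rose and 6.42% fell in control culture, and 7.06% rose and 4.32% fell in Wnt1 culture. The epithelial counts of calls given below lie near these shares. Smooth muscle markers summed to 149990 to 179162 in Wnt1 culture, 110657 to 125726 in control culture and 4999.8 to 6284 in stalk, and 5 of 7 rose in each culture. Endothelial markers summed to 977 to 1937, 1678 to 1995 and 7699 to 8878 in the same order of groups, and of 7 tested 3 fell in Wnt1 culture and 4 in control culture. Macrophage markers summed to 8491 to 9909, 10798 to 20733 and 3742 to 4321, with 2 of 7 rising in Wnt1 culture and 4 in control culture. Lung mesenchyme markers summed to 25809 to 42542, 36367 to 54138 and 55993 to 61762, with 5 of 10 falling in Wnt1 culture and 6 in control culture (1 rose there). Epithelial markers summed to 4670.3 to 12569, 5083 to 5829 and 1605 to 1949.9, and 1 of 10 rose in Wnt1 culture and 2 in control culture. Most of the highest sum, in Wnt1 replicate 2, was Krt8 at 4384 and Krt18 at 6905. Erythroid markers summed to 140992 to 234895, 148085 to 341855 and 66087 to 116697, and of 5 tested 1 rose and 2 fell in Wnt1 culture and 1 rose and 4 fell in control culture. Most of each culture sum was Hbb-y, at 225931 and 119742 in Wnt1 culture and 327677 and 142301 in control culture. In stalk Hbb-y was at 50044 and 27707. Lung epithelial Sftpc was at 356 and 77.4 in Wnt1 culture, 308 and 326 in control culture and 82.6 and 106 in stalk. The medians of those arrays, in the same order, were 295 and 149, 298 and 209, and 95.2 and 76.2. Cdh1, of the same list, was at 21.2 and 13.9, 248 and 138, and 47.8 and 65.8. Against stalk 8 of the 10 epithelial markers were above 0 and 2 below in Wnt1 culture, and 10 above 0 in control culture. The part of these cells, and of the higher medians and Actb ratios of the culture arrays, in the changes of the Bmp genes was not tested.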

How the data were processed

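The files hold 1 signal intensity per probe set and array on a linear scale, which the authors deposited. The submitters' processing notes name MAS5 and Affymetrix Expression Console. Versions, settings and a genome build are not given in the sources used. Labelling used a 2-cycle cDNA kit and biotin, per the labels' protocols. The number of arrays, 2 a group, limits precision.

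Of 45101 probe sets, 64 controls were left out. All 20 member probe sets matched RefSeq by gene identifier, with 0 symbols changed. Probe sets above 96.4 (the 40th percentile) on at least 2 arrays were kept, 37414 in all and 18 of the 20 members, and tested as log2(signal + 44.4), where 44.4 is the 25th percentile. All 8 arrays entered 1 limma 3.58.1 fit (R 4.3.3; eBayes with a trend on mean signal, no covariate, two-sided, Benjamini-Hochberg over all probe sets, threshold 0.05). With 2 against 2, an exact permutation test cannot go below 0.33, and none was run. The script was tested on simulated data.

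Members and gene lists were chosen with earlier results of these data known. All members are named; from each pathway list, at most 3 called genes with the smallest p, or else the 2 that differed most. Cell type lists are given by counts and sums. Bmpr2, Rgma, Hjv, Upk3b, Bnc1, Nkx2-1, Sftpc, Cdh1, Krt8, Krt18, Hbb-y, Fstl1 and the genes plotted with the receptors were named after their values were seen. The 23 alternatives changed pseudocount, filter, signal floor, normalization, variance model, probe sets, threshold, arrays and block. Figures used matplotlib 3.10.9.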

Additional observations from a re-analysis of the deposited data

How the results depend on the processing

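Of 23 alternatives, 8 of which left out 1 array, none changed the count of 0 members past the threshold in tip minus stalk or in Wnt1 minus control culture. The 5 members past it in each culture against stalk became 0 in both with the signal floor and 1 in both with quantile normalization. With median centring they were 0 higher and 5 lower in control culture and 1 higher and 3 lower in Wnt1 culture, in place of 3 higher and 2 lower in each. In Wnt1 culture they became 3 with no intensity trend and 3 with array quality weights. Leaving out 1 array gave 0 to 6 in control culture and 1 to 6 in Wnt1 culture.

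Several small differences changed sign. With quantile normalization Grem1 was at -0.011 for Wnt1 minus control culture and Bmp7 at -0.27 for Wnt1 culture minus stalk. With median centring Bmp7 was at -0.76 for Wnt1 culture minus stalk, and Bmp4 at 0.12, Bmper at 0.15 and Bambi at 0.076 for Wnt1 minus control culture. When each gene was the mean over its probe sets, Bmp5 was at 0.083 for tip minus stalk. The cause was not tested. Leaving out 1 array gave tip minus stalk ranges of -0.012 to 1.38 for Bmp2, -0.23 to 0.13 for Bmp7, -0.038 to 0.49 for Bmper and -0.33 to 0.00049 for Bmpr1a. For Wnt1 minus control culture the ranges were -0.10 to 0.36 for Bmp2, -0.21 to 0.045 for Bmp4, -1.58 to -0.13 for Bmp5, -0.19 to 1.19 for Bmp7, -0.77 to 0.66 for Bmper, -0.19 to 0.31 for Grem1, -1.22 to 0.059 for Fst, -0.42 to 0.17 for Bambi and -0.11 to 0.86 for Bmpr1a. Bmper ran from -1.26 to 0.16 for control culture minus stalk. For Wnt1 culture minus stalk Bmper ran from -1.25 to 0.038 and Bmp7 from -0.64 to 0.73.

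Over all probe sets, 8685 passed in control culture and 4261 in Wnt1 culture against stalk. These counts were 12527 and 8514 with the replicate number as a block, 14108 and 9572 at an adjusted p under 0.10, 2297 and 891 with quantile normalization, and 657 and 114 with the floor. With 1 probe set a gene they were 4250 and 2613, and with probe sets averaged 3821 and 2009. In Wnt1 culture 2218 passed with array quality weights and 2618 with no intensity trend. Leaving out 1 array gave 214 to 14227 and 179 to 12709. Tip minus stalk had 0 calls, and 3 with the floor and 3 with array quality weights. Wnt1 minus control culture had 0, and 46 with the floor, 1 each with the block, a pseudocount of 16 and the mean of probe sets, and 0 to 58 without 1 array.

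The replicate block left the members past the threshold at 0, 0, 5 and 5. Deviations of same-numbered arrays correlated at -0.015 for tip and stalk, 0.15 for stalk and each culture and 0.27 between the cultures, and the labels do not say what a number stands for, so samples are not shown to be paired. An array left out leaves its group with 1 array, which is assumed to vary like the others. Dim signals are limited by the background, which could not be measured per probe set.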

Other observations

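Where no gene of a pathway list passed the threshold, its 2 largest differences were as follows. For tip minus stalk, the receptors Bmpr2 and Rgmb were at -0.55 and -0.51, Smad5 and Smad4 at -0.48 and -0.42, the targets Id2 and Msx1 at 0.53 and 0.52, the antagonists Cer1 and Sost at 0.76 and -0.68, and the ligands Gdf2 and Bmp10 at 0.70 and 0.67. For Wnt1 minus control culture, the targets Hey1 and Id1 were at 1.61 and 0.87, Smad9 and Smad4 at -1.42 and -1.05, the receptors Hjv and Acvrl1 at -1.58 and 1.42, the antagonists Sostdc1 and Cer1 at -1.89 and -1.77, and the ligands Bmp6 and Gdf2 at 0.82 and 0.72. Among the antagonists in Wnt1 culture minus stalk, Chrdl1 was at 2.05 and Fstl3 at 1.84. All are log2 differences of which none passed.

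The genes whose pattern over the 8 arrays came nearest to each member were found among 14679 genes by the root mean square difference of log2 values, after each gene's own mean was taken away. For Bmp4 these were Ski (0.10), Cul3 (0.10) and Prr5l (0.11), and for Bmpr1a Nras (0.10), Ppp4r2 (0.13) and Prkd3 (0.14). Bambi was nearest to Sh3kbp1 (0.12), Zfp105 (0.13) and Wdr20 (0.14). Bmper was nearest to Ppp3r1, Meis2 and Kpna4 (all 0.18) and Bmp7 to Ermard (0.17), Fbxo34 (0.18) and Ssx2ip (0.19). Bmp5 lay near Rerg, Sdc2 and Knop1 (all 0.21). Bmp2 lay near Mesp2 (0.21), Cystm1 (0.29) and Eomes (0.31), Fst near Ptk2b, Kcnk16 and Slco4a1 (all 0.26), and Grem1 near Misp (0.28), Tafa3 (0.28) and Perp (0.30). These values describe likeness over arrays that share the culture contrast and the same scaling. They also depend on how much a gene varies, so they do not rank the members against each other. The SD of the log2 values over the 8 arrays was smallest for Bmp7, at 0.45, and largest for Bmp5, at 1.27.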
